A study of Mus musculus with 8 samples.

Results

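Matricellular proteins are secreted into the extracellular matrix, where they bind collagens, growth factors and cell surface receptors and change how cells attach, move and signal, rather than serving as the load-bearing scaffold itself. Many of them are made during morphogenesis and again during wound repair, and in the limb they are best known from tendon, perichondrium, cartilage and fascia. The 10 genes described here were taken from a fixed list of symbols: *Postn*, *Tgfbi*, *Tnc*, *Tnn*, *Thbs2*, *Comp*, *Sparc*, *Sparcl1*, *Mgp* and *Cilp*. They are 10 of the 28001 features in the count matrices. The rule that names them uses no measured value, but the list was chosen with earlier results of these data known. Every member was counted as unique molecular identifiers (UMIs, one per captured transcript), and levels are given as CPM, the UMIs of a gene per 1000000 UMIs of the cells summed. These are 3′ tags and are not scaled by transcript length, so members are compared across cells and not with each other.

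The series is a single-cell RNA-seq study of mouse forelimb mesenchymal progenitors (MPs) that express *Hic1*, with 8 libraries. In 6 of them, tdTomato+ cells were sorted from forelimbs at embryonic day (E) 11.5, 12.5, 13.5 and 14.5 and from a proximal and a distal segment at E16.5. The other 2 are E11.5 whole forelimb dissociations, holding cells with and without the label. The sorted libraries are labelled Hic1CreERT2/CreERT2 and Rosa26LSLtdTomato/tdTomato, while the titles of the whole limb libraries name *Hic1* and tdTomato without giving the alleles. The strain was C57BL/6J throughout, and tamoxifen, 7.5 mg by gavage of the dam at embryonic day 10, switched on tdTomato only in cells that then used the *Hic1* promoter and in their descendants. Both *Hic1* alleles of the sorted groups carry CreERT2, so none of them has an unmodified *Hic1* locus, and forelimbs of several embryos were pooled for a library. The sort also removed cells carrying blood, endothelial or macrophage surface markers. The proximal E16.5 piece ran from the distal upper arm to the proximal forearm with the elbow, and the distal piece from the distal forearm to the digits.

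After removal of barcodes under 3000 UMIs or over 10% mitochondrial UMIs, 53085 of 57469 barcodes remained, between 3165 and 11109 per library, with median depths from 6788 to 18473 UMIs per cell. Library pairs shared between 0 and 48 cell barcodes, at most 1.04% of the smaller library. *tdTomato* stood between 431 and 1410 CPM in the sorted libraries against 3.89 and 4.21 CPM in whole limb, *Hic1* between 23.7 and 38 CPM against 0.703 and 0.743 CPM, and the limb mesenchyme gene *Prrx1* at 235 CPM or more in all 8. Keratin-expressing, epithelial-like clusters made up 8.43% of the E16.5 proximal cells and at most 0.823% of any other library. They were set aside, and serve below as the level of a member in cells of another type. At E16.5 that level is an average over unlike clusters of 635 and 368 cells. These had *Tnc* at 1.4 and 16.3 CPM, *Comp* at 7.77 and 14 CPM and *Mgp* at 39.5 and 90.4 CPM. A muscle signal was also present, since *Acta1* stood at 16.1 CPM in the proximal and 2.06 CPM in the distal E16.5 library, and a cluster of 2575 cells led by muscle fibre genes came largely from the proximal segment. No myogenic transcription factor was raised in that cluster, and *Alx1* and *Entpd2* were also among its leading genes. It held *Postn* at 1171 CPM and was left unnamed.

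In the GENCODE annotation of GRCm38, the assembly also called mm10, all 10 genes are protein coding and all 10 identifiers match the deposited ones. The fasciclin-domain genes lie at chr3:54361109-54391037 (*Postn*) and chr13:56609523-56639562 (*Tgfbi*). The tenascins lie at chr4:63959785-64047015 (*Tnc*) and chr1:160085029-160153580 (*Tnn*), and the thrombospondins at chr17:14665500-14694235 (*Thbs2*) and chr8:70373558-70382066 (*Comp*). *Sparc* is at chr11:55394500-55423183, *Sparcl1* at chr5:104079111-104113733, *Mgp* at chr6:136872435-136875823 and *Cilp* at chr9:65265180-65280605. The members are thus spread over 10 chromosomes, and no pair shares a locus.

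RefSeq promoter windows on GRCm38.p6 were at hand for 7 of the 10 members, with 9 start sites in all, while *Mgp*, *Sparcl1* and *Comp* had none. Shown here are the 250 bases before the start site for *Postn* and *Thbs2*, the pair whose levels followed each other most closely over E16.5 clusters, for *Tnc*, which differed most between sorted and whole limb cells, and for *Cilp*, which marked tenocyte-like cells of both E16.5 segments. Each is written 5′ to 3′ on the strand of the gene, and capitals mark the TATA box sequence TATATAA. The windows are chr3:54360857-54361106 on the plus strand for the second listed start of *Postn*, chr4:64046937-64047186 on the minus strand for the second listed start of *Tnc*, chr9:65264930-65265179 on the plus strand for *Cilp* and chr17:14694263-14694512 on the minus strand for *Thbs2*.
Postn: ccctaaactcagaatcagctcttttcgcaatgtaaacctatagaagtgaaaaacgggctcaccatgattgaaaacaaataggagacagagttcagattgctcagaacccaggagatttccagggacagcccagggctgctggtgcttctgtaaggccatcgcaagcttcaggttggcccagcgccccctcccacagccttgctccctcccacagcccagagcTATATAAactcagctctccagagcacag
Tnc: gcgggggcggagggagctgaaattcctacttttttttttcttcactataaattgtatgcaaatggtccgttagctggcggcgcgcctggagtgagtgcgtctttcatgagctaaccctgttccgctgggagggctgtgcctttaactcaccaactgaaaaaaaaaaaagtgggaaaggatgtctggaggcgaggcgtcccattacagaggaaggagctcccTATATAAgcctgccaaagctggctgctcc
Cilp: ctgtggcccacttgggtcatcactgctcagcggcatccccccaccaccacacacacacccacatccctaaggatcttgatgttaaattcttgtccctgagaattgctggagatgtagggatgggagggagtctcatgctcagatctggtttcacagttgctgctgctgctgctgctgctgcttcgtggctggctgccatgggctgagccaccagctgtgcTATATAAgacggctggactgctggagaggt
Thbs2: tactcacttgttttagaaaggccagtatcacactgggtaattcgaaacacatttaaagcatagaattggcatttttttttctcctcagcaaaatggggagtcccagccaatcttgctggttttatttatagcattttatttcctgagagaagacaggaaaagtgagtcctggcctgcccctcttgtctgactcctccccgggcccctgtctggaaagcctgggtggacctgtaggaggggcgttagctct
Counting the base before the start as -1, TATATAA began at -28 in *Postn*, -29 in *Tnc* and -30 in *Cilp*. It was searched on the strand of the gene after the sequences had been read. Of 32851 RefSeq promoter windows of this length 2.05% held it anywhere, and 0.578% held it beginning between -40 and -20. The other 6 of the 9 windows did not hold it, namely the first listed starts of *Postn* and *Tnc* and the windows of *Thbs2*, *Tgfbi*, *Sparc* and *Tnn*. On both strands, the AP-1 sequence TGANTCA was in none of the 9 windows (6.75% of all windows), and the TEAD sequence GGAATG was in that of *Tnn* alone (12.6%). The E-box CANNTG, which includes the sites of the tendon factor Scleraxis, matched both windows of *Tnc* and those of *Cilp*, *Thbs2* and *Sparc* (66.2%). A match is a run of letters and was not tied to any measurement.

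The first comparison asked how *Hic1*-lineage cells differed from other forelimb mesenchyme when they first appeared in the limb, and it is the only one with replicates: 1 sorted library against 2 whole limb libraries at E11.5. The paper reports that labelled cells lay mostly in the proximal forelimb at this stage, while the whole limb libraries also held distal mesenchyme. Lineage and position along the limb therefore cannot be told apart here. UMIs were summed over the mesenchymal cells of each library (3155, 5085 and 5334 cells) and tested with edgeR's quasi-likelihood test and Benjamini-Hochberg adjustment over 15060 genes. The design leaves 1 residual degree of freedom, the sorted library is assumed to vary as the whole limb libraries do, and the 2 whole limb libraries are not stated to be separate litters, so the p-values measure the spread between these samples only. Of the 8 members with enough counts, 5 were higher and 1 was lower in sorted cells. The background is large, as 26.9% of all genes tested were higher and 26.5% lower (53.4% in all). The median log2 fold of the 8 members was 0.88, and that of all genes tested was 0.01.

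*Tnc*, an anti-adhesive glycoprotein of tendon and perichondrium, differed most. Its level was 34.1 CPM in the sorted library against 2.53 and 2.27 CPM in whole limb, with a log2 fold of 3.65 ± 0.15 (SE, edgeR adjusted p = 1.9e-126). With 1 residual degree of freedom the size of such a p depends on the setting: without a filter on low counts edgeR's adjusted p was 0.014 for *Tnc*, 0.02 for *Sparc*, 0.033 for *Tgfbi* and 0.037 for *Comp*, with log2 folds nearly as before. *Comp*, the cartilage oligomeric protein that bridges collagen fibrils, was sparse but went the same way, with 36 UMIs in sorted cells and 3 and 8 in whole limb mesenchyme (log2 fold 3.08 ± 0.52, edgeR adjusted p = 1.9e-08). The size of the *Comp* fold rests on few counts, and without whole limb replicate 1 its log2 value was 2.28. Both genes lay above both whole limb libraries by far more than those 2 libraries differed. A list of 6 tenocyte markers moved with them, summing to 263 CPM in sorted against 60.7 and 59.7 CPM in whole limb mesenchyme. The 10 chondrocyte markers also did, at 690 CPM against 452 and 477 CPM, and the part of either list in the result was not tested.

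*Sparc*, a collagen-binding protein needed for fibril assembly, had 125 CPM in sorted mesenchyme, and the whole limb libraries had 48.5 and 53.4 CPM (log2 fold 1.11 ± 0.09, edgeR adjusted p = 2.6e-31). *Postn*, which cross-links collagen through lysyl oxidase and bone morphogenetic protein 1, stood at 3.32 against 1.67 and 0.954 CPM (log2 fold 1.16 ± 0.25, edgeR adjusted p = 1.2e-05). *Tgfbi*, the other fasciclin-domain member, stood at 43.3 against 26.7 and 25.5 CPM (log2 fold 0.55 ± 0.12, edgeR adjusted p = 2.1e-05). In all 3 the sorted library was above both whole limb libraries, although relative to their level those 2 libraries differed by more for *Postn* than for *Sparc* or *Tgfbi*.

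*Mgp*, the vitamin K-dependent inhibitor of mineralisation, was the member that was lower in sorted cells, at 1.69 CPM against 2.7 and 2.92 CPM (log2 fold -0.91 ± 0.25, edgeR adjusted p = 0.00088). With every cell thinned to 3000 UMIs its log2 fold was -1.81. *Sparcl1* and *Thbs2* did not pass. *Sparcl1*, a relative of *Sparc*, stood at 1.98 against 1.31 and 0.933 CPM (edgeR adjusted p = 0.052), and *Thbs2*, an anti-angiogenic thrombospondin, at 1.15 against 0.729 and 0.869 CPM (edgeR adjusted p = 0.43). *Tnn* had 1, 1 and 0 UMIs and *Cilp* 5, 0 and 1, too few to test. Under DESeq2 the calls of *Postn* (adjusted p = 0.071) and *Mgp* (adjusted p = 0.099) were lost, and without a filter on low counts edgeR's adjusted p for *Postn* was 0.106. When all filtered cells were summed, the log2 fold of *Sparcl1* turned to -0.25. Over all cells outside epithelial-like clusters, 8 endothelial markers summed to 16 CPM in the sorted and to 29.7 and 32.8 CPM in the whole limb libraries. In mesenchymal cells the same markers summed to 15.3 CPM against 15.3 and 14.6 CPM.

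**Figure D1:**
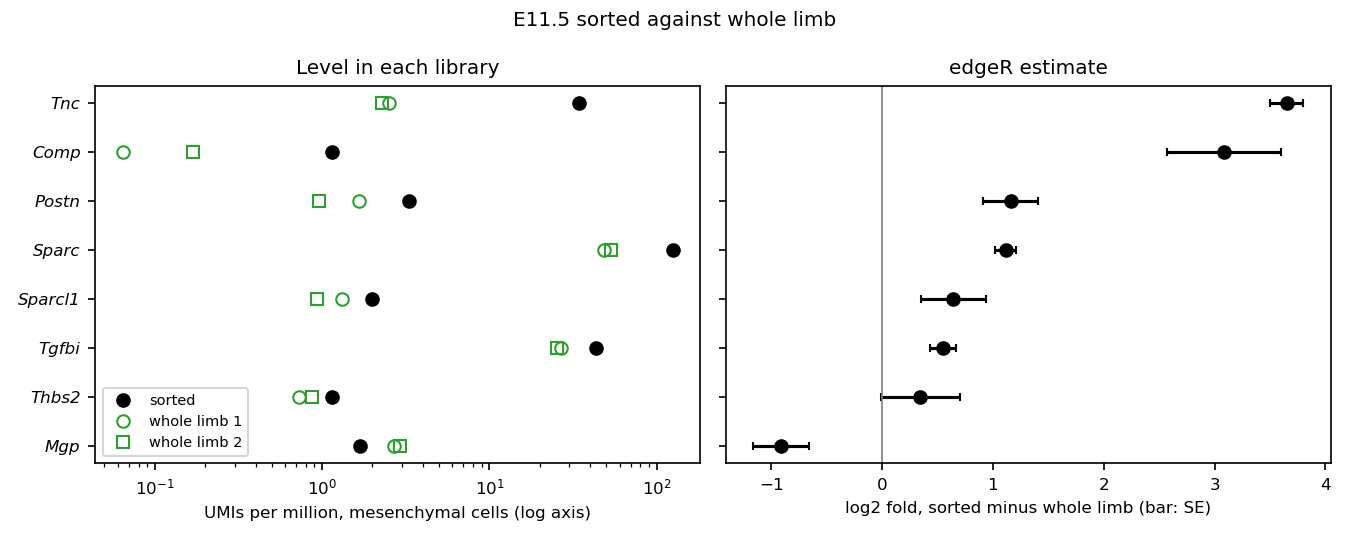
Left, CPM of 8 members in mesenchymal cells of the sorted library (filled circle) and both whole limb libraries (open symbols) at E11.5, on a log axis. Right, the edgeR log2 fold of sorted minus whole limb with its SE. *Tnc* and *Comp* lie farthest to the right, and *Mgp* alone lies left of 0.

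Among 14 tested relatives of the members, taken from a list of other matricellular family genes, 8 were higher and 2 lower in sorted cells by the same edgeR test. The highest folds were those of *Cilp2* (log2 2.17, adjusted p = 0.0048), *Smoc2* (log2 1.62) and *Wisp1* (log2 1.43), and the lower pair was *Spp1* (log2 -1.64), which encodes osteopontin, and *Spock1* (log2 -0.90). Of 12 tested receptors 3 were higher, with *Itgb8* in the lead (log2 1.28), and 4 were lower, with *Ptprz1* in the lead (log2 -0.81), shares near the 26.9% and 26.5% of all genes tested. Among 6 tested enzymes from a list for carboxylation and matrix maturation, 4 were higher, including *Lox* (log2 1.58) and *Bmp1* (log2 1.31), and *Vkorc1l1* was lower (log2 -0.55).

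The next question was how the members changed as labelled cells spread through the limb and diverged. Each stage is 1 library, so there is no test, and a gene is called changed here when its CPM + 1 differs at least 2-fold between libraries and reaches 10 CPM in the higher. Intervals are 95% Poisson limits for levels and exact binomial limits for ratios, and cover counting error only. All cells outside epithelial-like clusters were summed. Digestion changed between E12.5 and E13.5, and the 10x chemistry between E13.5 and E14.5, so these steps and the stage cannot be told apart. The step from E14.5 to E16.5 proximal sets whole forelimbs against a segment, so for every member stage and segment cannot be told apart there. In summed data, fewer cells making a transcript and less transcript per cell cannot be told apart either.

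From E11.5 to E12.5, 5 of the 10 members were called higher and 0 lower, where 2.05% of all genes compared were higher and 0.914% lower. The other 5 stayed under 10 CPM and could not be called. From E12.5 to E13.5, 3 were higher and 0 lower (background 1.38% and 1.67%). From E13.5 to E14.5, 3 were higher and 0 lower (4.2% and 4.96%). From E14.5 to E16.5 proximal, 7 were higher and 2 lower (5.02% and 4.81%). Some members reached 10 CPM only in the library where they were higher, namely *Postn* and *Mgp* in the first step, *Thbs2* in the second, *Sparcl1* in the third and *Comp* and *Cilp* in the last. They could not have been called lower, so the counts are descriptions. Markers of other cells also moved in the last step: summed erythroid markers went from 0.77 to 110 CPM, epithelial from 58.5 to 126 CPM, myogenic from 13.3 to 50.5 CPM and chondrocyte from 1082 to 5112 CPM, and their part in the members' levels was not tested. TMM scaling shifted all log2 ratios of the E14.5 to E16.5 proximal step by 0.21 and those of distal against proximal by -0.14. It added 0.23 to those from E13.5 to E14.5, which brought *Mgp* and *Sparc* over the 2-fold line and the count from 3 to 5.

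*Postn*, *Thbs2* and *Mgp* had a higher level at each later stage. Not every step was called: *Thbs2* stayed under 10 CPM from E11.5 to E12.5, and *Mgp* was 1.94-fold higher from E13.5 to E14.5. *Postn* stood at 3.3, 24.1, 86.9 and 375 CPM at E11.5, E12.5, E13.5 and E14.5, and at 1213 CPM in E16.5 proximal cells. Its ratios per step were 7.3 (interval 5.97 to 9.02), 3.61 (3.37 to 3.86), 4.32 (4.18 to 4.46) and 3.23 (3.2 to 3.26). *Thbs2* stood at 1.14, 4.21, 11.6, 52.7 and 169 CPM over the same libraries, with its largest step between E13.5 and E14.5 (4.53-fold, 4.15 to 4.96). For *Mgp*, the order was 1.68, 22.4, 107, 208 and 705 CPM, and its largest step came first (13.3-fold, 10.1 to 17.9). No counting intervals of adjacent stages overlapped for these 3 genes. *Sparc*, *Sparcl1* and *Cilp*, given below, also had a higher level at each later stage. The E11.5 and E12.5 intervals of *Sparcl1* and *Cilp* overlapped.

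*Sparc* was detected from the start, at 132, 342, 587, 1118 and 2933 CPM, with each step between 1.72-fold and 2.62-fold. With every cell thinned to 3000 UMIs, the share of cells with at least 1 *Sparc* UMI went from 28.1% at E11.5 to 57.7%, 73.4%, 86.7% and 98.3%. Unthinned shares were 53.2%, 83.2%, 89.7%, 98.5% and 100%. In epithelial-like cells of the E16.5 proximal library the thinned share was 33.2% (unthinned 69.4%, median 37772 UMIs), so part of any *Sparc* share at this stage is at the level of cells of another type.

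*Tnc* and *Tgfbi* took another course, with a plateau and then a lower value in the proximal segment. *Tnc* stood at 34, 75.6, 80.7 and 68 CPM from E11.5 to E14.5 and at 27.9 CPM in E16.5 proximal cells, a ratio of 0.41 (0.397 to 0.424) for the last step. *Tgfbi* stood at 43.1, 116, 148 and 107 CPM and then at 42 CPM (0.392, 0.382 to 0.403). These were the members called lower at any step. Their E16.5 distal levels, 87.9 CPM for *Tnc* and 115 CPM for *Tgfbi*, were above those of E14.5, so the lower value belongs to the proximal library.

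*Comp*, *Cilp*, *Sparcl1* and *Tnn* stayed low until late. *Comp* stood at 1.14, 0.972, 2 and 6.51 CPM to E14.5 and then at 163 CPM in the proximal segment, 25.1-fold higher (23.4 to 26.9), the largest step of any member above 10 CPM. The E14.5 library is a whole forelimb and the proximal piece holds the elbow. *Comp* was at 54.2 CPM in the E16.5 distal library, where the 10 chondrocyte markers summed to 1205 CPM. *Sparcl1* went from 1.97, 2.85, 8.26 and 26 CPM to 182 CPM, and *Cilp*, a cartilage intermediate layer protein, from 0.159, 0.339, 0.925 and 3.53 CPM to 17 CPM. *Tnn*, the bone and tendon tenascin, was at or under the limit that a count of 0 allows at E11.5 and E12.5 (1 and 3 UMIs), then at 0.903, 5.69 and 5.12 CPM. For *Comp*, the intervals at E11.5 (0.8 to 1.58 CPM) and E12.5 (0.704 to 1.31 CPM) overlapped.

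**Figure D2:**
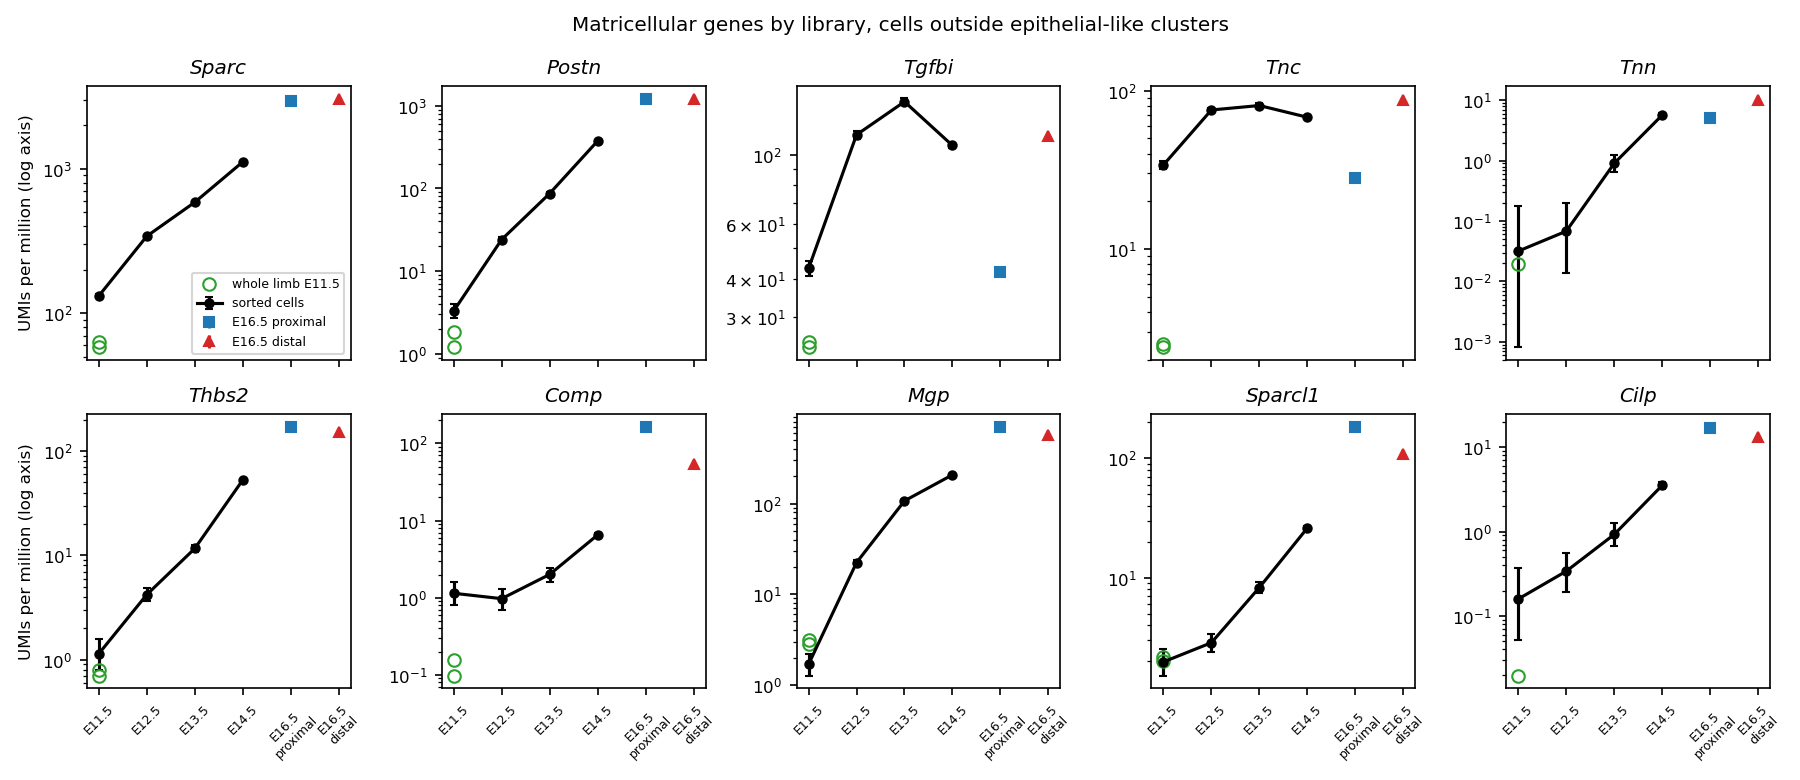
CPM (log axis, scaled per panel) of each member in cells outside epithelial-like clusters, by library, with 95% Poisson intervals. Black points are sorted cells from E11.5 to E14.5, the blue square E16.5 proximal, the red triangle E16.5 distal and green circles the whole limb libraries with at least 1 UMI. *Postn*, *Thbs2*, *Mgp*, *Sparc*, *Sparcl1* and *Cilp* have a higher level at each later stage, though not every step reaches 2-fold. *Tnc* and *Tgfbi* are lower in E16.5 proximal than in E16.5 distal cells.

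Other genes of the family did not share one course. *Cyr61* was at least 2-fold lower at each of the last 3 steps, from 813 CPM at E12.5 to 375, 131 and 58.1 CPM. *Thbs4*, a tendon thrombospondin, was higher at each of the first 3 steps, from 1.27 to 10.1, 39.2 and 81.5 CPM. In its first step it reached 10 CPM only in the later library and could not have been called lower. In the last step 7 of 14 relatives were higher, led by *Tnxb* (2.11 to 76 CPM) and *Nov* (8.34 to 102 CPM), and 1 was lower, against 5.02% and 4.81% of all genes compared. Of the 7, *Tnxb*, *Nov*, *Spp1*, *Smoc1* and *Spock2* reached 10 CPM only in the later library and could not have been called lower. Of the 9 or 10 receptors compared per step, 0, 1, 0 and 1 were called, which is no result about the receptors beside the shares of all genes given above. These were *Itgav*, lower from E12.5 to E13.5 (38 to 15.1 CPM) and *Itgb1*, higher in the last step (242 to 488 CPM). Among the enzymes, *Lox* was higher from E11.5 to E12.5 (6.16 to 18.6 CPM) and again from E13.5 to E14.5 (37.5 to 87.7 CPM), and *Vkorc1*, which regenerates the vitamin K used to carboxylate Mgp protein, at the latter step (75.1 to 190 CPM). From E11.5 to E12.5 *Lox* also reached 10 CPM only in the later library and could not have been called lower.

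The cells making each member were then compared by class. The members, with their relatives and receptors, were left out of the genes used for clustering, and clusters were named from markers that include none of them. No test was run between clusters. At E12.5 a chondrocyte-like group of 483 cells held *Mgp* at 71.6 CPM against 15.6 CPM in unnamed cells, and *Tgfbi* at 213 against 112 CPM, while *Postn* was at 1.4 against 31.5 CPM. At E13.5 the chondrocyte-like cells again had high *Mgp* (272 CPM) and low *Postn* (10.1 CPM), and 186 tenocyte-like cells held *Tnc* at 316 CPM, *Thbs2* at 45.1 CPM and *Sparc* at 1117 CPM. An unnamed cluster of 490 cells, led by the joint gene *Gdf5*, also had 7 chondrocyte markers raised and is not in the chondrocyte-like values. *Sparcl1* was then highest in 215 dermal fibroblast-like cells, at 52.1 CPM against 2.82 to 11.3 CPM in the other groups.

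By E14.5 the members were divided among classes. *Postn* stood at 759 CPM in fibroblast-like and 718 CPM in tenocyte-like cells, against 113 CPM in chondrocyte-like, 66.8 CPM in dermal fibroblast-like and 106 CPM in epithelial-like cells. The chondrocyte-like and dermal levels of *Postn* were thus close to or below that of cells of another type. *Comp* was at 55.4 CPM in chondrocyte-like cells and at most 6.05 CPM in every other class. *Cilp* was at 23.9 CPM in tenocyte-like cells and at most 6.84 CPM elsewhere. *Thbs2* was also highest in tenocyte-like cells (141 CPM), *Mgp* in chondrocyte-like cells (626 CPM) and *Sparcl1* in 43 endothelial-like cells (233 CPM), a small group that the sort was meant to remove.

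At E16.5 the classes were large enough to compare in both segments. *Cilp* marked tenocyte-like cells, at 173 CPM in proximal and 161 CPM in distal tenocyte-like cells. Every other named class was at 6.96 CPM or less, and epithelial-like cells were at 2.7 CPM in the proximal segment. That limit depends on the clusters, as mitotic-like cells had 23.9 and 21.5 CPM at a resolution of 0.5. With cells called one by one they had 13.8 and 12.6 CPM, against 125 and 99.7 CPM in tenocyte-like cells, which led for *Cilp* under each of these settings. Of the cells outside epithelial-like clusters, 8.39% in the proximal and 6.6% in the distal segment were tenocyte-like, and these gave 77.1% and 88.9% of all *Cilp* UMIs. *Ptx4* (Pearson r = 0.95 over 28 clusters) and *Col13a1* (0.88) had the pattern most like it.

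*Comp* marked chondrocyte-like cells, at 1550 CPM in the proximal and 573 CPM in the distal segment. Perichondrial-like cells followed at 103 and 77 CPM. Chondrocyte-like cells gave 95.6% of proximal and 65.4% of distal *Comp* UMIs. The genes most like it over the 28 clusters were *Mia* and *Acan*, both cartilage genes and both at r = 0.97. Proximal tenocyte-like (4.37 CPM), fibroblast-like (6.34 CPM) and dermal fibroblast-like cells (3.43 CPM) were below the 9.87 CPM of epithelial-like cells of the same library, and these values are read as background.

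*Tnn* was highest in the same skeletal classes, with 52.3 CPM in perichondrial-like and 23.3 CPM in chondrocyte-like proximal cells, 25 and 58.1 CPM in the distal segment, and at most 7.97 CPM in any other named class. The distal order is not firm, as perichondrial-like cells led at a resolution of 2 (43.9 against 38.8 CPM). They also led with cells called one by one (132 against 47.1 CPM), where proximal perichondrial-like cells had 47.3 CPM. *Tnc* was broader, reaching 131 CPM in proximal perichondrial-like and 293 CPM in distal chondrocyte-like cells, with 78 and 185 CPM in tenocyte-like cells. Over the 28 clusters the tenascins had r = 0.74 with each other, and *Tnn* had r = 0.78 with *Comp*. Dermal fibroblast-like cells had *Tnc* at 11.7 CPM in the proximal segment, where epithelial-like cells averaged 4.04 CPM. That value lies between those of the epithelial-like clusters, at 1.4 and 16.3 CPM over both segments. In the distal segment the dermal fibroblast-like level was 20.3 CPM, close to the 18.2 CPM of the 67 epithelial-like cells there.

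*Mgp* was high in cartilage, perichondrium and tendon groups together. It stood at 2759 CPM in proximal chondrocyte-like, 1790 CPM in perichondrial-like and 1416 CPM in tenocyte-like cells, and in the distal segment tenocyte-like cells led at 1282 CPM. With cells called one by one, distal perichondrial-like cells led instead (1218 against 1139 CPM). In proximal dermal fibroblast-like cells it was at 48.4 CPM, at the epithelial-like level of 52.9 CPM. The difference between the lowest and the highest class was therefore wider for *Mgp* than for *Sparc*, whose named proximal classes ranged from 2360 CPM in pericyte-like to 4468 CPM in dermal fibroblast-like cells. *Sparc* was well above its epithelial-like level of 281 CPM in all of them, and its leading class changed with the clustering resolution in both segments. The genes most like *Sparc* were *Serpinh1* (r = 0.94), the collagen chaperone, and *Rcn3* (0.91).

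*Postn* led in fibroblast-like cells of both segments, at 2317 and 1775 CPM, followed by tenocyte-like cells at 1959 and 1503 CPM. With cells called one by one from markers, proximal tenocyte-like cells led instead (2096 against 1969 CPM). By cluster, *Postn* was highest in unnamed cluster 6 (2547 CPM), and cluster 15, which held most distal fibroblast-like cells, was at 954 CPM, below both tenocyte-like clusters (1889 and 1365 CPM). *Thbs2* was highest in proximal perichondrial-like cells (542 CPM, against 246 CPM in tenocyte-like cells), while in the distal segment tenocyte-like (261 CPM) and chondrocyte-like cells (248 CPM) were close. The proximal perichondrial-like leads of *Thbs2*, *Tnc* and *Tnn* rest on 207 cells. At a clustering resolution of 0.5 tenocyte-like cells led for *Thbs2* (269 CPM) and *Tnc* (73.5 CPM) and chondrocyte-like cells for *Tnn* (23.2 CPM). The lowest clusters of mesenchyme for *Postn*, 2 dermal fibroblast-like clusters of 990 and 1072 cells at 51.6 and 123 CPM, were no higher than proximal epithelial-like cells at 123 CPM. Among the 45 pairs of members *Postn* and *Thbs2* had the highest correlation over the 28 clusters (r = 0.86), against a median of 0.31 and a lowest value of -0.52 for *Tnn* and *Sparcl1*. *Aspn* was among the 2 genes most like each of the pair (r = 0.90 with *Postn* and 0.91 with *Thbs2*), beside *Ptn* for *Postn* (0.90) and *Col12a1* for *Thbs2* (0.91). For *Tnc* these were *Foxp4* (0.91) and *Mpped2* (0.87), for *Tnn* *Clec11a* (0.88) and *Foxc1* (0.85), for *Mgp* *Adgra3* (0.86) and *Nab2* (0.85), for *Tgfbi* *P4ha3* (0.89) and *Otud7b* (0.88), and for *Sparcl1* *BC028528* (0.86) and *Pja1* (0.82). The clusters share 2 libraries, and these correlations are descriptions.

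*Sparcl1* was set apart from the other members. Among named classes it was highest in pericyte-like cells, at 235 CPM in the proximal and 203 CPM in the distal segment, with tenocyte-like cells close behind at 220 and 191 CPM and distal dermal fibroblast-like cells also at 191 CPM. This order is not firm, since at a resolution of 2 proximal tenocyte-like cells led (228 against 222 CPM), and without the highest 5% of doublet scores distal tenocyte-like (198 CPM) and dermal fibroblast-like cells (197 CPM) came first. The 2 pericyte-like clusters themselves were at 134 and 367 CPM. The unnamed cluster led by muscle fibre genes had a higher level, 374 CPM over its 2575 cells, and unnamed proximal cells gave 49.6% of the proximal *Sparcl1* UMIs. Among named classes *Tgfbi* was highest in tenocyte-like proximal cells (160 CPM) and in fibroblast-like distal cells (223 CPM). By cluster it was highest in unnamed cluster 24 (346 CPM), where the joint genes *Gdf5* and *Erg* were raised. Unnamed cells gave 49.7% of distal *Tgfbi* UMIs. With cells called one by one, distal fibroblast-like (159.7 CPM) and fibrogenic progenitor-like cells (159.6 CPM) were level.

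**Figure D3:**
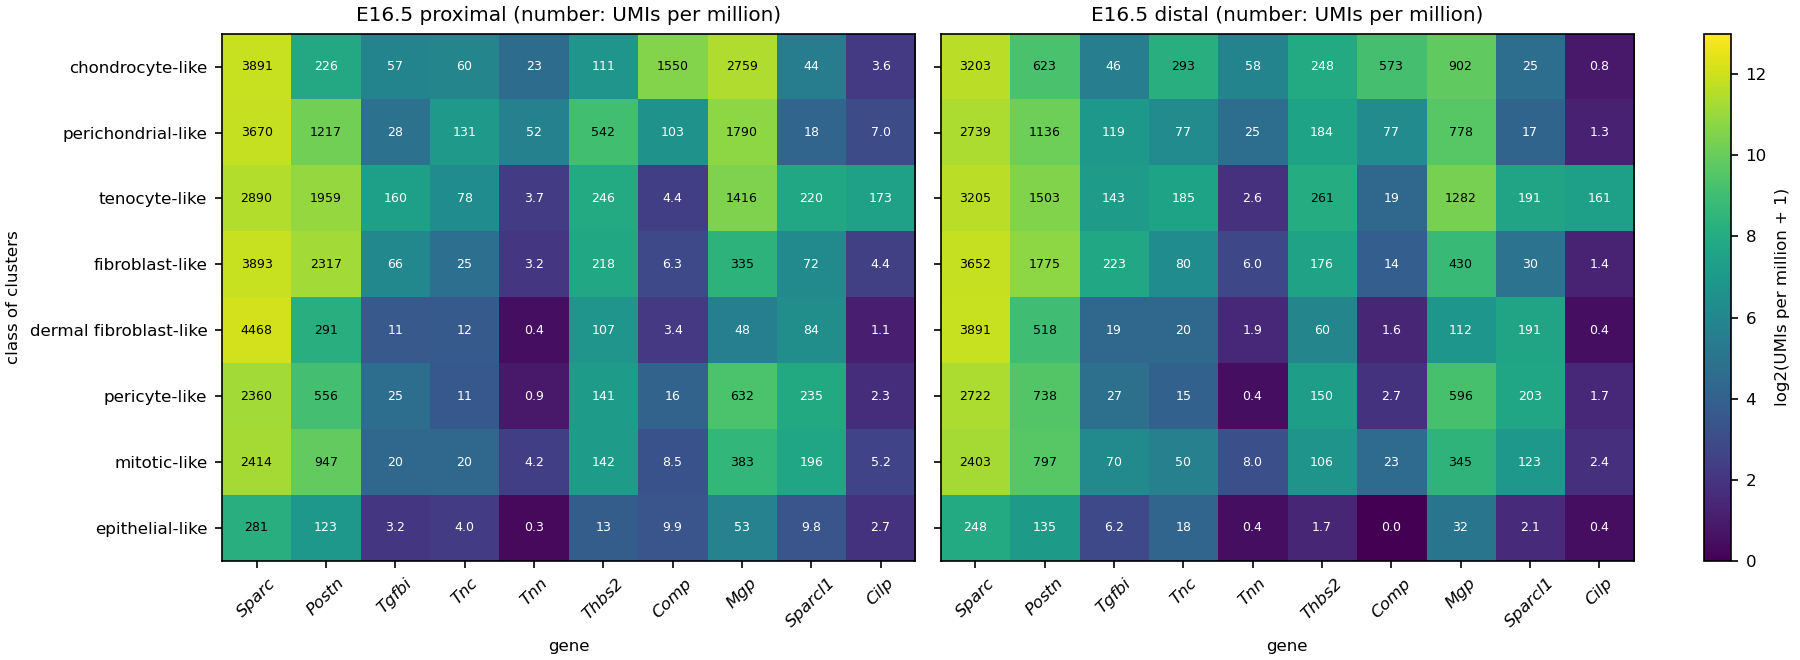
Level of each member (columns) in 8 classes of clusters (rows) of the E16.5 proximal and distal segments, printed as CPM and coloured by log2 of that value + 1. *Cilp* stands out in tenocyte-like and *Comp* in chondrocyte-like cells, and epithelial-like cells give the level in cells of another type.

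**Figure D4:**
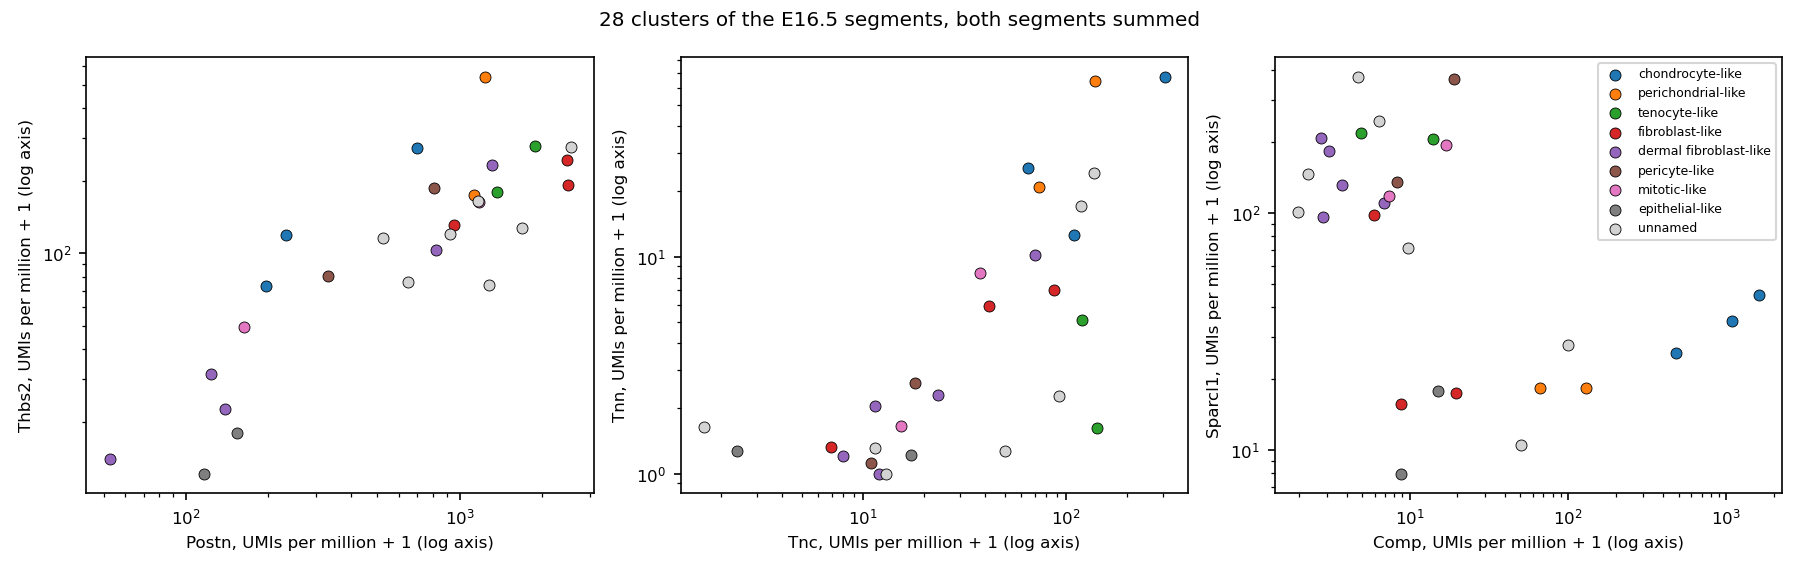
Each point is 1 of 28 E16.5 clusters, placed by CPM + 1 of 2 members on log axes and coloured by class. *Postn* and *Thbs2* rise together, the clusters highest in *Tnn* also have *Tnc*, and clusters high in *Comp* are low in *Sparcl1*.

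The E16.5 segments were compared last, to see which members differed along the limb. With 1 library per segment there is no test. At least 2-fold higher in the distal segment were 2 members, *Tnc* (27.9 CPM proximal, 87.9 CPM distal, ratio 3.15, 3.05 to 3.25) and *Tgfbi* (42 and 115 CPM, ratio 2.73, 2.66 to 2.8). *Comp* was lower (163 and 54.2 CPM, ratio 0.332, 0.324 to 0.34). Of all genes compared, 3.22% were higher and 1.73% lower. *Tnn* had a ratio of 2 (1.85 to 2.17) but missed the 2-fold line on the scale of CPM + 1. *Sparcl1* was at 0.593 (0.582 to 0.604), *Cilp* at 0.774, *Mgp* at 0.808, *Thbs2* at 0.897, *Postn* at 1.01 and *Sparc* at 1.05, so 6 members differed by less than 2-fold.

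The distal excess of *Tnc* was present in several classes but not in all. It was 4.89-fold in chondrocyte-like (4.57 to 5.24), 3.13-fold in fibroblast-like (2.89 to 3.4) and 2.37-fold in tenocyte-like cells (2.2 to 2.54), while perichondrial-like cells had a ratio of 0.588 (0.521 to 0.664). Perichondrial-like cells called one by one were nearly level, with *Tnc* at 181 CPM in the proximal and 170 CPM in the distal segment. *Tgfbi* was 4.28-fold higher in distal perichondrial-like (3.46 to 5.35) and 3.38-fold higher in distal fibroblast-like cells (3.22 to 3.55), against 0.891 in tenocyte-like and 0.803 in chondrocyte-like cells. With the class shares of both segments set equal, the overall ratios were 3.23 for *Tnc* and 3.18 for *Tgfbi*. That step takes unnamed cells as a single class, although the muscle-gene cluster among them lay largely in the proximal segment. Without that cluster, and with shares as found, the ratios were 2.69 for *Tnc* and 2.27 for *Tgfbi*. Unnamed cells, 28.4% of the proximal and 37.4% of the distal cells, also differed, with *Tnc* at 11.4 and 92.8 CPM and *Tgfbi* at 13.5 and 162 CPM. The muscle-gene cluster had *Tnc* at 10.5 and *Tgfbi* at 9.88 CPM, so the unnamed values compare different cells. Tenocyte-like cells of both segments came from the same clusters, but chondrocyte-like cells were mostly cluster 8 in the proximal and cluster 16 in the distal segment. Fibroblast-like cells were mostly clusters 1 and 10 against 15, perichondrial-like cells 22 against 13, and dermal fibroblast-like cells 7 against 5.

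*Comp* was lower in distal chondrocyte-like cells, which gave most of its UMIs. There the ratio was 0.37 (0.359 to 0.381). It was also lower in distal perichondrial-like (103 and 77 CPM, ratio 0.749, 0.657 to 0.855) and pericyte-like cells (16.3 and 2.7 CPM, ratio 0.165, 0.0882 to 0.286). The pericyte-like values lie near background. Over both segments the pericyte-like clusters had *Comp* at 7.33 and 18 CPM, and an epithelial-like cluster had 14 CPM. Chondrocyte-like cells were 10.4% of the proximal and 6.48% of the distal library. Without chondrocyte-like clusters, an alternative added after the values were seen, *Comp* was at 7.97 CPM in the proximal and 20 CPM in the distal segment, which turns the direction. The chondrocyte markers given above were also higher in the proximal library. Without these clusters the proximal *Comp* value is below the 9.87 CPM of epithelial-like cells of that library, so this reversal compares the distal cells with background, as do the *Comp* ratios above 1 in tenocyte-like and fibroblast-like cells. The same holds for *Comp* in mitotic-like (8.52 and 22.6 CPM, ratio 2.65) and unnamed cells (4.19 and 23.2 CPM, ratio 5.54). In chondrocyte-like cells *Mgp* was also lower in the distal segment (2759 and 902 CPM, ratio 0.327), while *Postn* (226 and 623 CPM, 2.75), *Thbs2* (111 and 248 CPM, 2.24) and *Tnn* (23.3 and 58.1 CPM, 2.5) were higher. *Cilp* in tenocyte-like cells differed little between segments (ratio 0.933, 0.879 to 0.991).

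The proximal excess of *Sparcl1* was smaller without the muscle-gene cluster, of which 2466 cells were proximal and 109 distal. Without that cluster *Sparcl1* was at 128 CPM in the proximal and 102 CPM in the distal segment, a ratio of 0.798. With class shares set equal, which keeps the cluster among unnamed cells, the ratio was 0.545. The 9 myogenic markers summed to 50.5 CPM in the proximal and 15.4 CPM in the distal library, and their part in the result was not tested. Dermal fibroblast-like cells had more *Sparcl1* in the distal segment (84.3 and 191 CPM) and fibroblast-like cells less (72.1 and 29.9 CPM). Chondrocyte-like (ratio 0.563) and mitotic-like cells (0.626) also had less. Pericyte-like (0.864), tenocyte-like (0.871) and perichondrial-like cells (0.939) differed little.

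**Figure D5:**
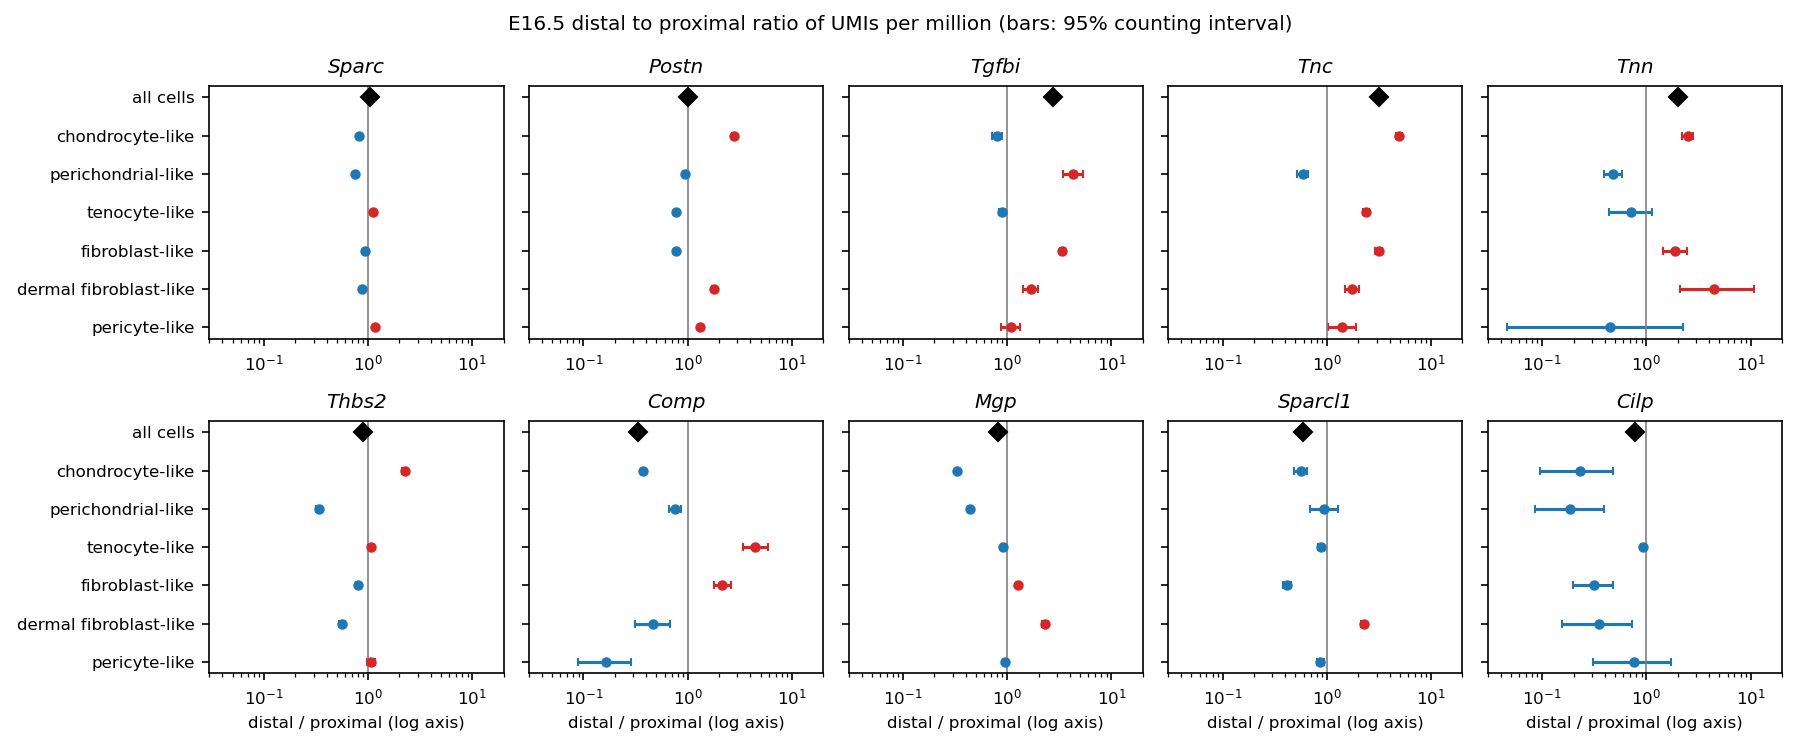
Ratio of distal to proximal CPM at E16.5 for each member, on a log axis with 95% counting intervals, in all cells (black diamond) and in 6 classes (red above 1, blue below 1). *Tnc* and *Tgfbi* lie right of 1 in all cells, and *Comp* lies left of 1 in all cells and in chondrocyte-like cells.

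Among the relatives, *Ctgf* (11.9 and 39.2 CPM) and *Cyr61* (58.1 and 122 CPM) were at least 2-fold higher in the distal segment and *Smoc2* lower (355 and 164 CPM). Of 10 receptors compared, 3 were higher in the distal segment and 0 lower: *Itga5* (25.7 and 57.4 CPM), *Itga8* (12 and 29.1 CPM), which pairs with Itgb1 to bind tenascin, and *Ptprz1* (6.69 and 15 CPM), a tenascin-binding phosphatase. Of all genes compared, 3.22% were higher and 1.73% lower. *Ptprz1* reached 10 CPM only in the distal library and could not have been called lower. None of the 6 enzymes compared reached 2-fold in either direction.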

How the data were processed

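The authors sequenced 10x libraries, aligned them to a modified mm10 with Cell Ranger (3.0.2 in 5 file headers, 6.0.1 in 1, not named in 2) and deposited filtered matrices of UMI counts per gene and cell, not normalized. From these counts, cells with at least 3000 UMIs and at most 10% mitochondrial UMIs were kept. Library totals ranged from 32957305 to 236408650 UMIs. Scrublet (scanpy 1.11.5) marked at most 0.0948% of a library, so it did not work as a doublet caller, and an alternative left out the highest 5% of its scores. Cells were clustered per stage (2000 variable genes, 50 components, 25 neighbours, leidenalg 0.10.2, resolution 1) and named where at least 3 markers of a class were raised, unless another class had more markers among the 10 leading genes, which left unnamed some clusters with 3 or more raised markers. After the clusters were seen, 2 naming rules were added: a myogenic name required a myogenic transcription factor, and clusters led by 3 markers of another class took that class. The E11.5 test used edgeR 4.0.16 (TMM, quasi-likelihood) in R 4.3.3. It was tested on simulated data. Results were recomputed with DESeq2 (version 1.42.0) and with voom from limma 3.58.1. Classes compared at E16.5 had at least 20 cells. Named genes are all members, up to 3 genes of each other list with the largest change in each direction, and for each member the 2 genes with the highest Pearson r of log2(CPM + 10) over E16.5 clusters among genes of at least 50 CPM in 1 of them. Members and lists were chosen with earlier results of these data known.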

Additional observations from a re-analysis of the deposited data

Results flagged for a closer look

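In 2 members the distal to proximal difference at E16.5 went opposite ways in 2 classes, each by at least 2-fold beyond its counting interval and above the epithelial-like level of its library. *Thbs2* had a ratio of 2.24 in chondrocyte-like cells and 0.339 in perichondrial-like cells, and *Sparcl1* a ratio of 2.26 in dermal fibroblast-like cells and 0.414 in fibroblast-like cells. The *Thbs2* value depends on the naming of cells. Perichondrial-like cells called one by one had *Thbs2* at 586 CPM in the proximal and 420 CPM in the distal segment, less than 2-fold apart. With 1 library per segment the difference between classes was not tested, and in each of these classes other clusters hold most cells of each segment.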

How the results depend on the processing

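Of the recomputed counts (members called per comparison, and members keeping their leading class), 119 stayed within 1.5 times the reported count and 5 did not. Of the values of single members, 363 kept their call or moved by no more than their error, 201 moved by more, 3 lost their call and 3 reversed. With a minimum of 50 CPM in place of 10, members higher from E11.5 to E12.5 numbered 3. With TMM scaling, 5 members were higher from E13.5 to E14.5. Without chondrocyte-like clusters, 0 members were lower in the distal segment, and the *Comp* log2 ratio was 1.23. DESeq2 called 0 members lower in sorted cells at E11.5. With cells called one by one from 3 markers of 1 class, 6 of 10 members kept their leading class in the distal segment. Summing all filtered cells turned the *Sparcl1* log2 fold at E11.5 to -0.25, and summing all barcodes to -0.15. Without whole limb replicate 1 or 2 the *Postn* log2 fold was 1.56 or 0.81 and that of *Comp* 2.28 or 3.25, values with no test. With cells thinned to equal depth the *Mgp* log2 fold was -1.81. No paired analysis was possible because the groups compared share fewer than 2 replicate numbers. Depth limits *Tnn* and *Cilp* before E13.5, where 3 UMIs correspond to 0.0586 to 0.0952 CPM.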
